A study of Mus musculus with 3 samples.

Results

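The genes described here encode the machinery of insulin granule exocytosis. They were chosen by name, 41 in all, with earlier results of these data known. Of them, 40 were found among the 24119 genes of an RNA-seq study of islets from male C57BL/6 mice, and Rims1 was not analysed here. The 40 comprised 7 SNARE genes, 2 genes of SNARE recycling, 6 synaptotagmins and 7 Rab GTPases. A further 8 were grouped as Rab effectors, with the RIM genes among them. Another 9 encode priming factors, complexins, tomosyn and a syntaxin-binding (SM) protein, and the last is the synapsin gene Syn1. Each of 3 groups gave 1 RNA library. In the ND group the diet is the one labelled ND and DMSO was given by gavage; in the HFD_DMSO group a high-fat diet was combined with DMSO; in the HFD_CGP group a high-fat diet was combined with CGP 57380. Gavage lasted 1 month in all groups, and the ND mice are labelled 4 month without saying whether that is age or time on the diet. CGP 57380 blocks MNK kinases, whose substrate is the translation initiation factor eIF4E. The number of animals behind each library is not given in the sources used here, and whole islets hold beta, alpha, delta and other cells.

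Secretory granules fuse with the plasma membrane when the granule SNARE VAMP2 zips together with the plasma membrane SNAREs syntaxin 1A and SNAP25. Rab3 and Rab27 GTPases and their effectors bring granules to the membrane and hold them there, Munc13 and CAPS proteins prime them, and synaptotagmins and complexins couple fusion to the rise in calcium. NSF and its adaptor alpha-SNAP take spent SNARE complexes apart. In beta cells this machinery releases insulin after glucose has closed the KATP channels and opened calcium channels.

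Depth was 17129040 reads in ND, 16297513 in HFD_DMSO and 17623819 in HFD_CGP, and Ins1 and Ins2 together took 15.32%, 43.5% and 19.09% of them. With 1 library per group there is no replicate check, so every comparison is between 2 libraries and not between diets or treatments. "Rose" and "fell" mark genes whose deposited adjusted p, from the authors, lay under 0.05; recomputation showed that this test took the spread between animals as an assumed value. Among genes with at least 100 reads in a library of the pair log2 fold changes had to reach at least 1.04 in either direction to pass in HFD_DMSO vs ND. For HFD_CGP this limit was 1.25 against HFD_DMSO and 1.19 against ND. Brackets after a log2 fold change give its 95% counting interval, which covers counting error only. Levels are CPM, reads scaled to library size, on a scale shared by the 3 libraries, and levels of different genes are compared per kilobase of gene model. Beta-cell markers were detected in all libraries, 12 of 12, and so were 7 of 7 alpha-cell and 6 of 6 delta and PP cell markers. HFD_DMSO stood apart from the other libraries in Lars2 (2983, 39975 and 3184 reads in ND, HFD_DMSO and HFD_CGP), singled out after its values were seen, and HFD_CGP vs ND is the only pair without it. The summed level of 20 acinar-cell markers was 15800 CPM in ND, 6180 CPM in HFD_DMSO and 164 CPM in HFD_CGP. That of 8 duct-cell markers was 374, 780 and 417 CPM in the same order, and that of 12 stellate cell and fibroblast markers 234, 884 and 382 CPM. In bulk islets fewer cells of a type and less RNA per cell cannot be told apart. Fold changes against ND also followed the GC content of the transcripts, and the calls of the members were therefore repeated with a correction for it. Levels, and ratios of levels between genes, are given without that correction.

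Reads of the exocytosis genes made up 0.453% of the ND, 0.309% of the HFD_DMSO and 0.506% of the HFD_CGP library, and 0.535%, 0.547% and 0.625% of the reads other than Ins1 and Ins2. At least 100 reads were found for 34, 31 and 32 of the 40 members in the same order. The most abundant member per length was Syt13, a synaptotagmin that lacks the calcium-binding residues, at 194, 291 and 291 CPM per kb in ND, HFD_DMSO and HFD_CGP. It stood at the 99.6th percentile of all genes with a read. Cplx2, a complexin that clamps and assists the SNARE complex, followed at 67.5, 101 and 77.7 CPM per kb, and Napa, which encodes alpha-SNAP, at 49.2, 85.6 and 89.2 CPM per kb. Sytl4, or granuphilin, which docks insulin granules through Rab27a, stood at 74.2, 29.7 and 39.3 CPM per kb and Rab27a itself at 65.7, 22.6 and 39.5. In both cases the ND library was highest and HFD_DMSO lowest. Rab3a and Cplx1 had at most 10 reads in any library. Rab3a had 3, 1 and 6 reads in ND, HFD_DMSO and HFD_CGP, and Cplx1 had 10, 0 and 2. A gene on the other strand covers 1.3% of the exon bases of Rab3a. Vamp8, a SNARE of regulated secretion in exocrine cells and beta cells, had 22, 23 and 55 reads.

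**Figure D1:**
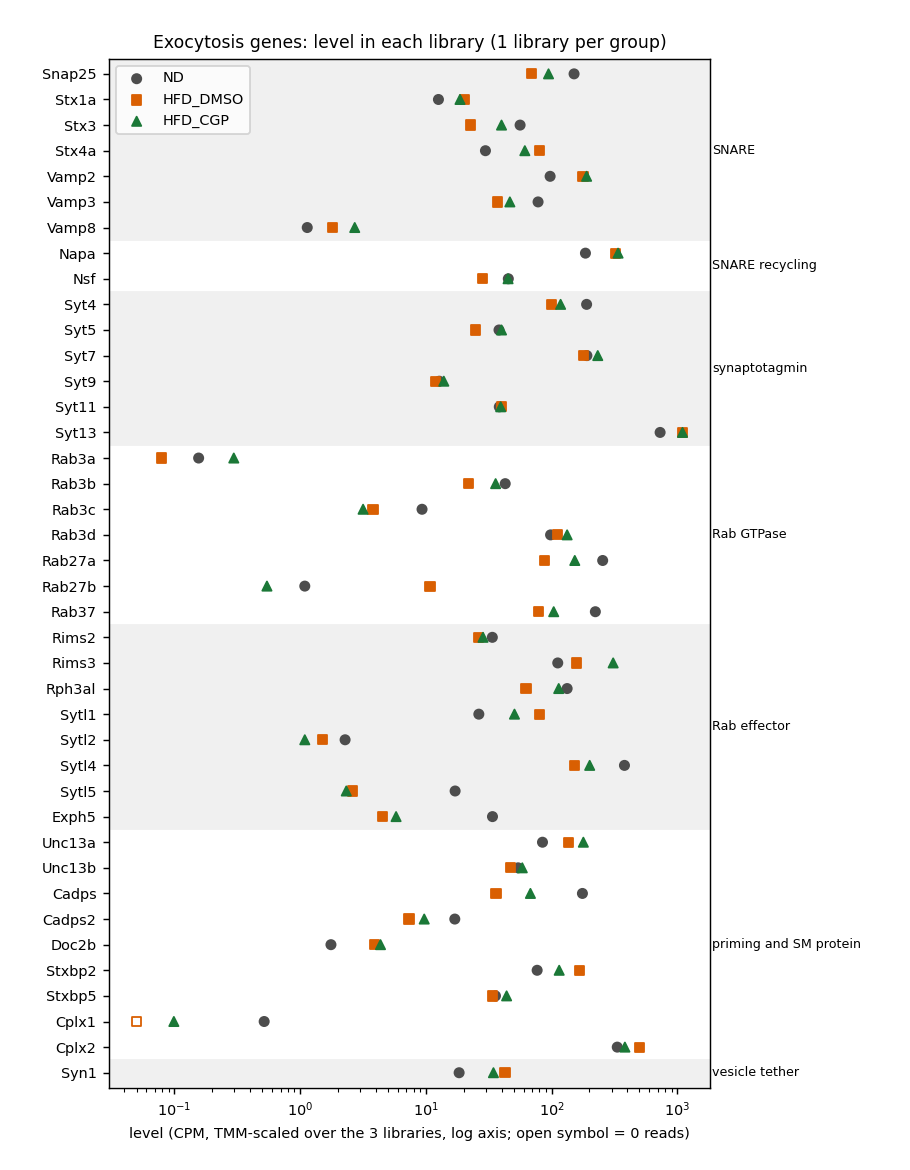
Level of each of the 40 measured exocytosis genes in the 3 libraries, in CPM on a log axis, with 1 symbol per library (open where a gene had 0 reads) and genes grouped by role. Syt13 lies furthest right at 730 to 1100 CPM, and Exph5, Sytl5 and Cadps show the ND symbol well to the right of both high-fat symbols.

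The diet comparison is HFD_DMSO vs ND. Of the 40 members, 5 rose, 13 fell and 22 did not pass. The authors' deposited calls put 12.6% of all 22899 genes higher and 13.2% lower, against 12.5% and 32.5% of the members. Among genes with at least 100 reads in a library of the pair the background was 13.7% higher and 19.9% lower, and 14.3% and 34.3% of the 35 members at that level. By the deposited calls the share of members called higher was thus near the background, and the share called lower was above it. Because the members were chosen with earlier results of these data known, this is a description and not a test. With an assumed coefficient of variation of 0.4 in place of 0.2, 1 member was higher and 0 lower. Of all genes 1.69% and 0.611% were then called. The median log2 fold change of the members was -0.28, beside -0.12 for all genes tested, and -0.19 beside -0.16 at 100 reads or more. Of 7 alpha-cell markers 4 fell and 0 rose, with a median of -1.35. Their summed level was 22100 CPM in ND, 5660 CPM in HFD_DMSO and 11000 CPM in HFD_CGP. The glucagon gene Gcg went from 373494 reads in ND to 46532 in HFD_DMSO (-2.39, or -1.79 after the correction for GC content). Of 12 beta-cell markers 2 rose and 4 fell. The part of alpha cells in the members' values was not tested. Snap25, Stx3, Vamp3, Rab27a, Rab37, Rab3c, Sytl4, Sytl5, Exph5, Rph3al, Cadps, Cadps2 and Cplx1 fell, and Stx4a, Stxbp2, Sytl1, Syn1 and Rab27b rose. Scaling the libraries by their totals moved log2 folds by a median of -0.54. On that scale 2 members were higher and 17 lower, where 6.99% of all genes were called higher and 24.8% lower. At 100 reads or more this was 2 and 16 of 35 members, beside 6.53% and 38% of genes. After the correction for GC content 1 was higher and 9 lower, where 11.7% of all genes were called higher and 9.55% lower, or 1 and 8 of 35 members beside 8.63% and 11.7% of genes at 100 reads or more.

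Between the high-fat libraries, HFD_CGP vs HFD_DMSO compares inhibitor with vehicle. Of the 40 members only Rab27b passed, which fell, while 0 rose. The background of the authors' deposited calls was 1.4% of 22208 genes higher and 4.95% lower, against 0% and 2.5% of the members. Among genes with at least 100 reads in a library of the pair it was 1.62% higher and 3.42% lower, against 0 and 1 of 33 members. After the correction for GC content Rab27b was again the only member called, where 2.13% of all genes were called higher and 7.04% lower, and 2.03% and 3.67% at 100 reads or more. The median of the members was 0.22, beside 0.04 for all genes tested. Of the 32 uncalled members with at least 100 reads in a library of the pair, 22 lay within 0.5 of 0 on the log2 scale, and the range was -0.75 (Sytl1) to 0.88 (Rims3). Library totals moved log2 folds by a median of 0.65 here. With them 8 members were called higher, Cadps, Nsf, Rab27a, Rab3b, Rims3, Rph3al, Stx3 and Syt5, and Rab27b lower. The split was thus 8 to 1 in place of 0 to 1, where 14.4% of all genes were called higher and 3.06% lower. At 100 reads or more it was 8 and 1 of 33 members beside 22.3% and 2.14% of genes, so that the share of members called higher on that scale was near the background. On that scale the median of all genes was 0.70 and that of the members 0.87.

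HFD_CGP vs ND shares both of its libraries with the other comparisons. Of the 40 members Rims3 rose, Exph5, Sytl5, Cadps and Rab3c fell, and 35 did not pass. The background was 4.57% of 23063 genes higher and 4.36% lower, against 2.5% and 10% of the members. With at least 100 reads in a library of the pair it was 6.39% higher and 6.05% lower, against 1 and 4 of 34 members. The median of the members was 0.05, beside -0.06 for all genes tested. After the correction for GC content 0 members were higher and 3 lower, Exph5, Sytl5 and Rab37, where 2.76% of all genes were called higher and 2.49% lower, and 2.45% and 1.87% at 100 reads or more.

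**Figure D2:**
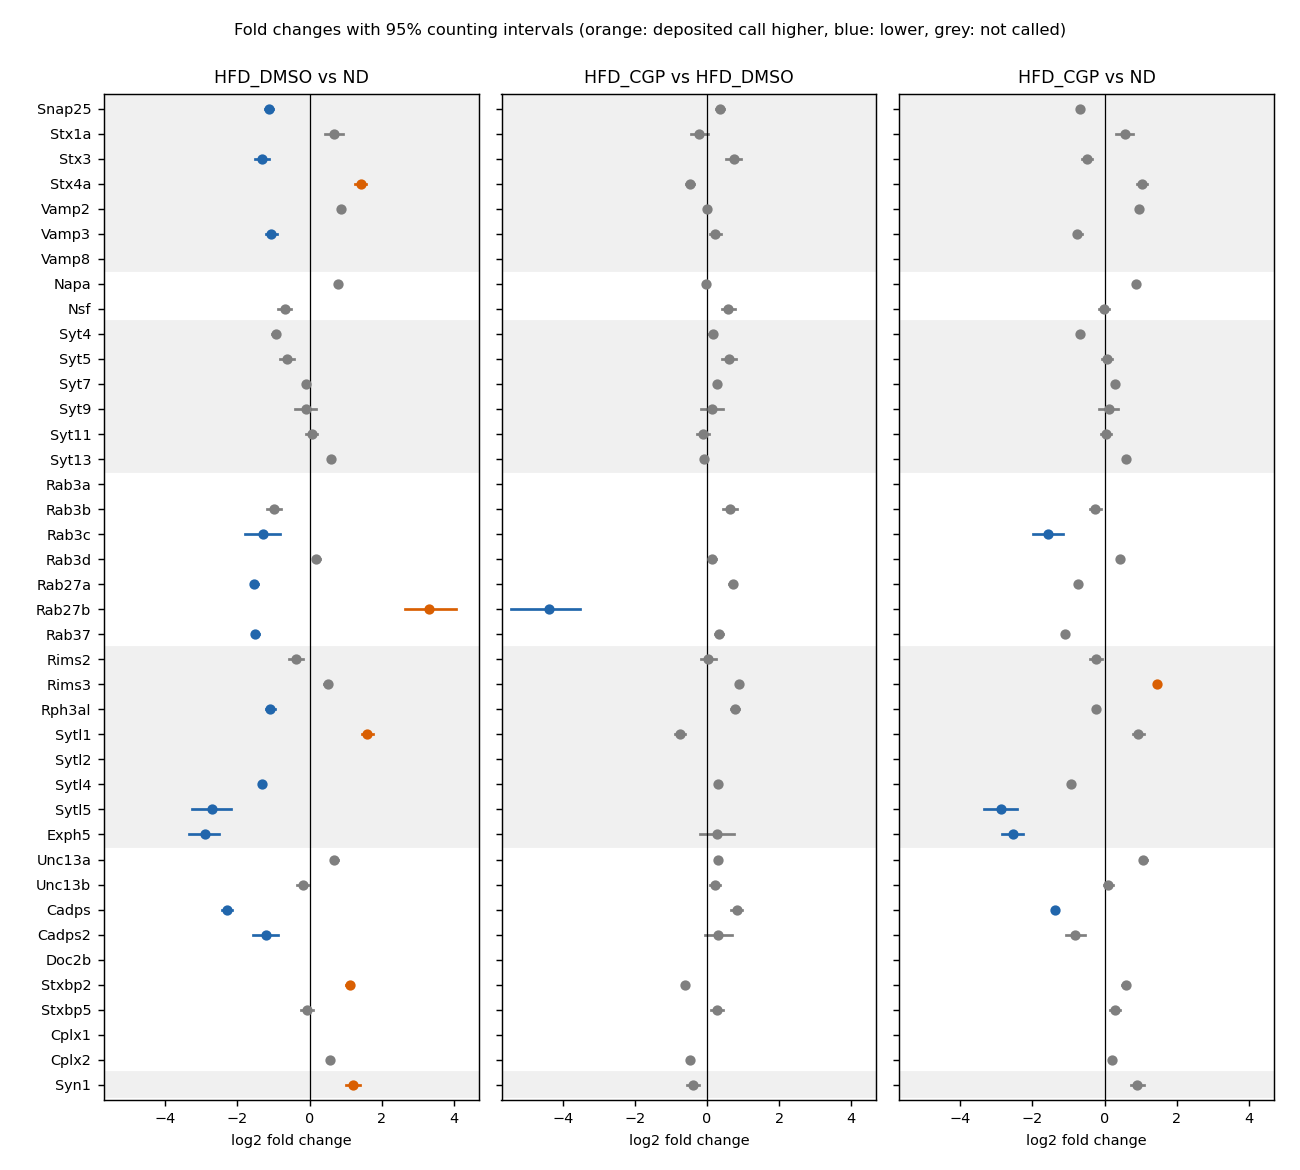
Log2 fold change of each member with at least 100 reads in a library of the pair, in the 3 comparisons; bars are 95% counting intervals, orange and blue mark calls higher and lower in the authors' deposited table and grey marks members that did not pass. Exph5 and Sytl5 lie below -2.5 against ND in both high-fat libraries, and in HFD_CGP vs HFD_DMSO only Rab27b is coloured.

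Of the 7 SNARE genes, Snap25, Stx3 and Vamp3 fell and Stx4a rose in HFD_DMSO vs ND, and of these 4 calls only that of Stx3 held after the correction for GC content. Snap25 (ENSMUSG00000027273, chromosome 2, 136713453 to 136782428), a plasma membrane SNARE, stood at 151 CPM in ND, 69.5 CPM in HFD_DMSO and 94.6 CPM in HFD_CGP. It fell in HFD_DMSO vs ND by a log2 fold change of 1.12 (-1.23 to -1.01), with an adjusted p of 0.0345 in the authors' deposited table. Its transcript is among the poorest in GC of the set, at 38.7%, and after the correction for GC content its fold change was -0.13. Stx1a, the syntaxin that pairs with SNAP25, had 12.6, 20.3 and 18.7 CPM and did not pass in any pair. Its 0.69 (0.43 to 0.94) in HFD_DMSO vs ND became 0.15 with library totals and -0.16 after the correction, and its 0.57 in HFD_CGP vs ND also became -0.16. Vamp2, the granule SNARE, had 97.4, 178 and 190 CPM and did not pass either, at 0.87 in HFD_DMSO vs ND and 0.96 in HFD_CGP vs ND. After the correction for GC content these stood at 0.47 and 0.61, and with library totals the first was 0.33.

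Of the other SNAREs, Stx3, a syntaxin of insulin granules, had 56.2, 22.5 and 40.0 CPM in ND, HFD_DMSO and HFD_CGP. It fell in HFD_DMSO vs ND by 1.32 (-1.52 to -1.13) and still did after the correction, at -1.21. Stx4a, a plasma membrane syntaxin that also serves glucose transporter insertion in muscle and fat, was lowest in ND, at 29.8 CPM against 79.7 CPM in HFD_DMSO and 61.3 CPM in HFD_CGP. It rose in HFD_DMSO vs ND by 1.42 (1.27 to 1.57), and did not pass after the correction (0.92) or with library totals (0.88). Vamp3, or cellubrevin, had 78.1, 37.4 and 46.6 CPM and fell by 1.06, and the corrected value of -0.43 did not pass. Per length Vamp2 and Vamp3 were level in ND, at 25.6 and 27.0 CPM per kb, while Vamp2 was 3.61 times Vamp3 in HFD_DMSO and 3.08 times in HFD_CGP. Stx1a was at 0.482 times the level of Stx3 per length in ND, 1.94 times in HFD_DMSO and 1.00 times in HFD_CGP. These ratios were not corrected for GC content, which is 53.2% for Vamp2, 44.4% for Vamp3, 57.9% for Stx1a and 49.2% for Stx3. Corrected folds in HFD_DMSO vs ND lay closer together, at 0.47 for Vamp2 and -0.43 for Vamp3. For Stx1a and Stx3 they were -0.16 and -1.21, also closer together than before the correction. Of the recycling genes, Napa had 186, 324 and 338 CPM and the ATPase gene Nsf 45.3, 28.1 and 45.1 CPM. Neither passed in any pair of the deposited tables. With library totals Nsf passed as lower in HFD_DMSO vs ND (-1.23) and as higher in HFD_CGP vs HFD_DMSO (1.25).

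No synaptotagmin passed in any comparison of the deposited tables. Syt7, the calcium sensor of slow and sustained granule release, had 191 CPM in ND, 180 CPM in HFD_DMSO and 233 CPM in HFD_CGP. Its log2 fold change was -0.09 (-0.16 to -0.01) in HFD_DMSO vs ND and 0.28 in both other pairs. The first became -0.67 after the correction for GC content and -0.63 with library totals, and HFD_CGP vs HFD_DMSO became 0.94 with library totals, none of which passed. Syt9, another calcium-binding form, had 12.8, 11.9 and 13.9 CPM, and Syt11, which does not act as a calcium sensor, 38.4, 40.0 and 39.4 CPM. On the shared TMM scale the 3 libraries lay within a small range for Syt9 and Syt11. Syt4 was highest in ND, at 190 CPM against 99.4 and 118 CPM, and stood at -0.93 (-1.03 to -0.84) in HFD_DMSO vs ND, which did not pass. Its transcript has a GC content of 40.7%, and the value was -0.03 after the correction, while -1.47 with library totals passed as lower. A gene on the other strand covers 14.5% of its exon bases, and whether reads were counted by strand is not given in the sources used here. Syt5, named after its values were seen, was lowest in HFD_DMSO, at 24.8 CPM against 38.2 CPM in ND and 40.0 CPM in HFD_CGP. It stood at -0.62 in HFD_DMSO vs ND, which did not pass, while -1.27 after the correction for GC content and -1.16 with library totals did. In HFD_CGP vs HFD_DMSO it passed with library totals only (1.25).

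Among the Rab GTPases, Rab27a (ENSMUSG00000032202, chromosome 9, 73044854 to 73097629), the main Rab27 form of insulin granules, fell and its paralog Rab27b rose. Rab27a had 4919 reads in ND, 1110 in HFD_DMSO and 3096 in HFD_CGP, or 255, 87.9 and 153 CPM. It fell in HFD_DMSO vs ND by 1.54 (-1.63 to -1.44), with an adjusted p of 0.00244 in the authors' deposited table, and by 1.16 after the correction. In HFD_CGP vs HFD_DMSO it stood at 0.71 (0.62 to 0.81), which did not pass, and at 1.37 with library totals, which did. Rab27b (ENSMUSG00000024511, chromosome 18, 69979131 to 70141605), which is abundant in exocrine glands, had 21 reads in ND, 137 in HFD_DMSO and 11 in HFD_CGP. It was 9.90-fold higher in HFD_DMSO than in ND (log2 3.31, 2.65 to 4.05) and 20.9-fold lower in HFD_CGP than in HFD_DMSO (log2 -4.38, -5.44 to -3.52). Both calls held after the correction for GC content, at 4.32 and -4.46. Only the HFD_DMSO library was high, and Rab27a stood above Rab27b per length in every library, by 22.3 times in that library and by 645 and 775 times in ND and HFD_CGP.

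The summed levels of duct-cell and of stellate cell and fibroblast markers were also highest in HFD_DMSO. So were those of beta-cell, macrophage and lymphocyte markers. Ins1 and Ins2 made up most of the beta-cell sum, at 178000 and 383000 CPM in HFD_DMSO. Of the other beta-cell markers only Ucn3 was highest in HFD_DMSO, and most were highest in ND. Single markers of the other lists also differed: Krt7 of the duct list was highest in HFD_CGP and Tff2 in ND. Cd79a of the lymphocyte list was highest in ND, and Adgre1, Csf1r and Itgam of the macrophage list in HFD_CGP. Rgs5 of the stellate list was level, at 143, 144 and 138 CPM in ND, HFD_DMSO and HFD_CGP. Of 8 duct-cell markers, 6 rose in HFD_DMSO vs ND and 6 fell in HFD_CGP vs HFD_DMSO, and of 12 stellate cell and fibroblast markers 10 rose and 7 fell in these pairs. Of 20 acinar-cell markers 3 rose and 12 fell in HFD_DMSO vs ND, with a median of -1.37, and 0 rose and 19 fell in HFD_CGP vs HFD_DMSO, with Ptf1a at 0 reads in HFD_CGP. The 3 that rose were the transcription factor genes Rbpjl (90, 1077 and 1 reads in ND, HFD_DMSO and HFD_CGP) and Ptf1a (6, 56 and 0) and the trypsin inhibitor gene Spink1 (447, 689 and 3), named after their values were seen. Bhlha15, another acinar factor gene, had 829, 846 and 1472 reads and did not pass in any pair. The part of these cells in the change of Rab27b was not tested. Rab3d and Vamp8, whose products sit on zymogen granules of acinar cells, did not pass in any pair. Rab3d stood at 98.2, 112 and 133 CPM and Vamp8 at 1.14, 1.82 and 2.72 CPM in ND, HFD_DMSO and HFD_CGP.

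Rab37, a Rab of secretory granules, had 223 CPM in ND, 78.6 CPM in HFD_DMSO and 104 CPM in HFD_CGP. It fell in HFD_DMSO vs ND by 1.5 (-1.6 to -1.4). At 52.7% its transcript lies above the median GC content of the set (51.2%), and the corrected fold change was larger, at -1.85; in HFD_CGP vs ND it passed only with the correction (-1.4 in place of -1.09). Rab3c had 180, 48 and 64 reads and fell against ND in both high-fat libraries, by 1.29 (-1.79 to -0.83) in HFD_DMSO and by 1.56 (-1.99 to -1.14) in HFD_CGP. Neither passed after the correction, at -0.46 and -0.86, and its transcript has a GC content of 41.9%. Rab3b, at 42.8, 21.8 and 35.9 CPM, did not pass in the deposited tables. With library totals it passed as lower in HFD_DMSO vs ND (-1.51) and as higher in HFD_CGP vs HFD_DMSO (1.28). Per length Rab3d was the most abundant of the 4 Rab3 genes in all libraries, at 23.4, 26.8 and 31.7 CPM per kb, and Rab3b the next, at 12.2, 6.18 and 10.2 CPM per kb.

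**Figure D3:**
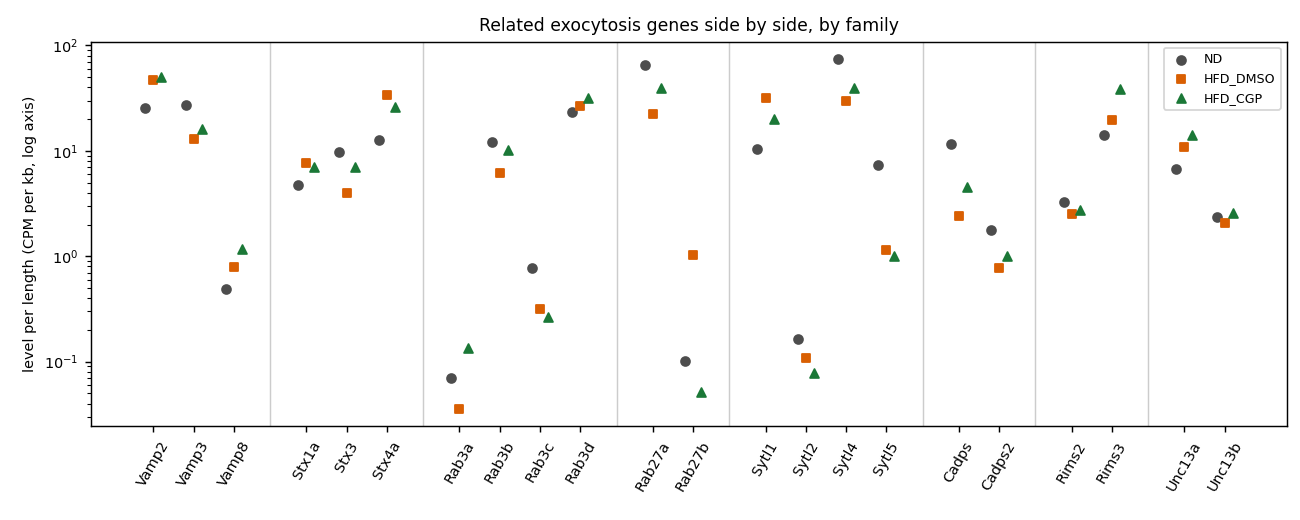
Level per length (CPM per kb, log axis) of related exocytosis genes in the 3 libraries, 1 symbol per library, families separated by vertical lines. Sytl4 lies above Sytl1 in ND and level with it in HFD_DMSO, Rab27b is raised in HFD_DMSO only, and Rims3 is highest in HFD_CGP.

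Among members with at least 100 reads in a library of the pair, the Rab effectors Exph5 and Sytl5 fell furthest against ND. Exph5 (ENSMUSG00000034584, chromosome 9, 53301670 to 53377514), which encodes the Rab27 effector Slac2-b, had 654 reads in ND, 57 in HFD_DMSO and 117 in HFD_CGP, or 33.9, 4.51 and 5.80 CPM. It was 7.50-fold lower in HFD_DMSO than in ND (log2 -2.91, -3.33 to -2.52) and 5.85-fold lower in HFD_CGP than in ND (log2 -2.55, -2.84 to -2.26). Sytl5 (ENSMUSG00000054453, chromosome X, 9885622 to 9994543), another Rab27-binding synaptotagmin-like protein, had 329, 33 and 47 reads. It was 6.51-fold lower (log2 -2.70, -3.27 to -2.19) and 7.31-fold lower (log2 -2.87, -3.35 to -2.43) in the same pairs. For both genes the 2 high-fat libraries lay close together and far under ND, and HFD_CGP vs HFD_DMSO gave 0.27 (-0.20 to 0.76) for Exph5 and -0.25 (-0.93 to 0.43) for Sytl5. After the correction for GC content Exph5 stood at -2.59 and -2.32 and Sytl5 at -2.23 and -2.49 against ND, all of which passed.

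Sytl4 (ENSMUSG00000031255, chromosome X, 133936385 to 133981812) had 380 CPM in ND, 152 CPM in HFD_DMSO and 201 CPM in HFD_CGP, and fell in HFD_DMSO vs ND by 1.32 (-1.39 to -1.25). It did not pass after the correction (-0.88). Sytl1 (ENSMUSG00000028860, chromosome 4, 133253090 to 133263113), a related effector, went the other way, with 26.4, 80.2 and 50.7 CPM. It rose in HFD_DMSO vs ND by 1.6 (1.45 to 1.76), and its transcript is the richest in GC of the named members, at 58.9%. The corrected value was 0.69, which did not pass. Per length Sytl1 was at 0.142 times the level of Sytl4 in ND, 1.07 times in HFD_DMSO and 0.513 times in HFD_CGP. These ratios were not corrected for GC content, which is 46.4% for Sytl4, and the corrected folds of 0.69 and -0.88 lay closer together. Rph3al, or Noc2, which binds Rab3 and Rab27 on granules, had 133, 62.6 and 114 CPM. It fell in HFD_DMSO vs ND by 1.09 (-1.21 to -0.97) and by 1.75 after the correction, and in HFD_CGP vs ND it stood at -0.23, or -0.79 after the correction, and did not pass.

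Rims3, which encodes a short RIM protein of the active zone, was the only member that rose in HFD_CGP vs ND. Rims3 (ENSMUSG00000032890, chromosome 4, 120854816 to 120896579) had 2162 reads in ND, 1997 in HFD_DMSO and 6233 in HFD_CGP, or 112, 158 and 309 CPM. Its log2 fold change was 1.46 (1.39 to 1.53) in HFD_CGP vs ND, with an adjusted p of 0.0115 in the authors' deposited table, and 0.88 (0.80 to 0.95) in HFD_CGP vs HFD_DMSO, which did not pass. After the correction the value against ND was 0.91 and did not pass, and that between the high-fat libraries was 0.99. Rims2, the long RIM form, had 33.8, 26.1 and 28.5 CPM, so that Rims3 was 4.32, 7.89 and 14.1 times Rims2 per length in ND, HFD_DMSO and HFD_CGP. These ratios were not corrected for GC content, which is 55.4% for Rims3 and 48.9% for Rims2. Sytl2, an effector of Rab27 in glucagon granules, had 44, 19 and 22 reads.

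The priming genes Cadps and Cadps2, which encode the CAPS proteins, were highest in ND. Cadps (ENSMUSG00000054423, chromosome 14, 12372563 to 12823079) had 3397 reads in ND, 457 in HFD_DMSO and 1370 in HFD_CGP, or 176, 36.2 and 67.9 CPM. It was 4.87-fold lower in HFD_DMSO than in ND (log2 -2.28, -2.43 to -2.14) and 2.60-fold lower in HFD_CGP than in ND (log2 -1.38, -1.47 to -1.28). After the correction for GC content these were -1.82, which passed, and -1.01, which did not. Cadps2 had 17.0, 7.36 and 9.71 CPM and fell in HFD_DMSO vs ND by 1.21, or 1.05 after the correction, which did not pass. The Munc13 gene Unc13a had 84.7, 136 and 179 CPM and did not pass, with 1.08 (1.00 to 1.17) in HFD_CGP vs ND and 0.56 after the correction. Unc13b, its paralog, had 54.2, 47.3 and 58.5 CPM.

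Stxbp2, which encodes the SM protein Munc18-2, had 76.8, 167 and 115 CPM in ND, HFD_DMSO and HFD_CGP. It rose in HFD_DMSO vs ND by 1.12 (1.02 to 1.21), and did not pass after the correction (0.62) or with library totals (0.58). Stxbp5, or tomosyn, an inhibitor of SNARE assembly, had 35.8, 34.1 and 43.9 CPM and did not pass. Doc2b, a calcium-binding priming factor, had 34, 49 and 88 reads and did not pass. Cplx2 had 333, 499 and 383 CPM and did not pass, whereas Cplx1 was called lower in HFD_DMSO vs ND on 10 reads against 0, at least 2.18-fold lower when 3 reads are allowed for the count of 0. Cplx1 is too scarce for that value to be read further.

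Syn1 (ENSMUSG00000037217, chromosome X, 20860511 to 20921004), or synapsin I, which tethers synaptic vesicles to actin in neurons, had 18.4 CPM in ND, 42.6 CPM in HFD_DMSO and 34.5 CPM in HFD_CGP. It rose in HFD_DMSO vs ND by 1.21 (1.02 to 1.41). Its transcript has a GC content of 57.9%, and the corrected value of 0.37 did not pass, nor did 0.68 with library totals. Rest, the repressor that keeps neuronal and exocytosis genes silent outside neurons and endocrine cells, had 23 reads in ND, 70 in HFD_DMSO and 30 in HFD_CGP, with log2 fold changes of 2.21 (called) and -1.98 (called) in HFD_DMSO vs ND and HFD_CGP vs HFD_DMSO. Both passed with the correction too, at 2.56 and -2.06, and the second did not pass with library totals (-1.33). Of 8 neuron and Schwann cell markers the summed level was 69.3, 81.3 and 106 CPM, and the part of such cells in the level of Syn1 was not tested.

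Promoters are shown for the pair with the deepest fall against ND in both high-fat libraries, Exph5 and Sytl5, and for a pair that rose in HFD_DMSO, Sytl1 and Syn1. They were chosen after the values and motif matches were seen. They come from RefSeq on GRCm38.p6, whose promoter table held 28 of the 40 members, and are written 5′ to 3′ with no base of the gene model. Exph5 spans chr9:53301420-53301669 on the plus strand, Sytl5 chrX:9885371-9885620 on the plus strand, Sytl1 chr4:133263114-133263337 on the minus strand and Syn1 chrX:20921005-20921168 on the minus strand. Capitals mark matches, on either strand, to the GC box GGGCGG, the CCAAT box CCAAT, the E-box CAGCTG, the cyclic AMP response element TGACGTCA or the left part TTCAGCACC and right part GGACAG of the REST element RE1. CACGTG and TATAAA were also searched. The 2 GC box matches of Exph5 overlap by 1 base.
Exph5: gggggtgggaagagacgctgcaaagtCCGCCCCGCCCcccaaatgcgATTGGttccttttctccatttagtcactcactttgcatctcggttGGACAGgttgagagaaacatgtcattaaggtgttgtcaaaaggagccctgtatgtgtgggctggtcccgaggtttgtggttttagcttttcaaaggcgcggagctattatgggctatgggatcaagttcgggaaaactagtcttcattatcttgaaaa
Sytl5: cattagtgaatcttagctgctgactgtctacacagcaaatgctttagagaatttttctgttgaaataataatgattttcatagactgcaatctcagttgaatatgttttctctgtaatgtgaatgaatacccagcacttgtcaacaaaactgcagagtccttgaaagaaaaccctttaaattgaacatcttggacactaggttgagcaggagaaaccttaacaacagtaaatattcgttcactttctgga
Sytl1: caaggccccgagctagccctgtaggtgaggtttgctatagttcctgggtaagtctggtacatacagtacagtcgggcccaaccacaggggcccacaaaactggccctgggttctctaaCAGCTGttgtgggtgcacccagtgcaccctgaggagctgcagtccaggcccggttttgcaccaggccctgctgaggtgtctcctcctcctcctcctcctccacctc
Syn1: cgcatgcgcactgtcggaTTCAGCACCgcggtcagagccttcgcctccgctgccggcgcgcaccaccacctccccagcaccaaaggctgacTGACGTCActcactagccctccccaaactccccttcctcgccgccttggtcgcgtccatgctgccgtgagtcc

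No searched motif was found in the Sytl5 promoter. Sytl5 had 1 CpG and a GC content of 35.2%, Exph5 had 9 CpG and 48.8%, and Syn1 had 16 CpG and 67.1% over the bases shown. In the 250 bases before the start, the left part of RE1 was found in Syn1 alone of the 28 member promoters and in 0.301% of 32851 promoters. The right part was not found in Syn1, and was found in 7 of the 28, among them Exph5, and in 18.7% of all. Both parts on 1 strand with at most 4 bases between them were found in 0 of the 28 member promoters and in 3 of all 32851. Syn1 thus held 1 part only, and these letters do not say whether REST binds there. The cyclic AMP response element was also found in Syn1 alone, and in 1.55% of all promoters. GC boxes were found in 18 of the 28 and in 32.7% of all promoters, and the CAGCTG E-box in 8 of the 28 and in 13% of all.

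Fold changes against ND ran with transcript GC content, in the members as in all genes. The median log2 fold change of all genes with at least 200 reads over the pair went from -1.12 in the lowest of 10 equal bins by GC content to 0.82 in the highest in HFD_DMSO vs ND, and from -0.79 to 0.89 in HFD_CGP vs ND. In HFD_CGP vs HFD_DMSO it went from 0.21 to -0.06. Spearman correlations across those genes were 0.61, 0.69 and -0.18 in the order HFD_DMSO vs ND, HFD_CGP vs ND and HFD_CGP vs HFD_DMSO. Across the members with at least 100 reads they were 0.53 (35 members), 0.72 (34) and -0.19 (33). These members share their libraries, and the values are given as a description. Members that fell in HFD_DMSO vs ND had a median GC content of 47.0% and those that rose 54.0%. Of the 18 members called there 9 kept their call after the correction: Rab27b among those that rose, and Cadps, Cplx1, Exph5, Rab27a, Rab37, Rph3al, Stx3 and Sytl5 among those that fell. The median of the members was then -0.18, beside -0.10 for all genes.

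**Figure D4:**
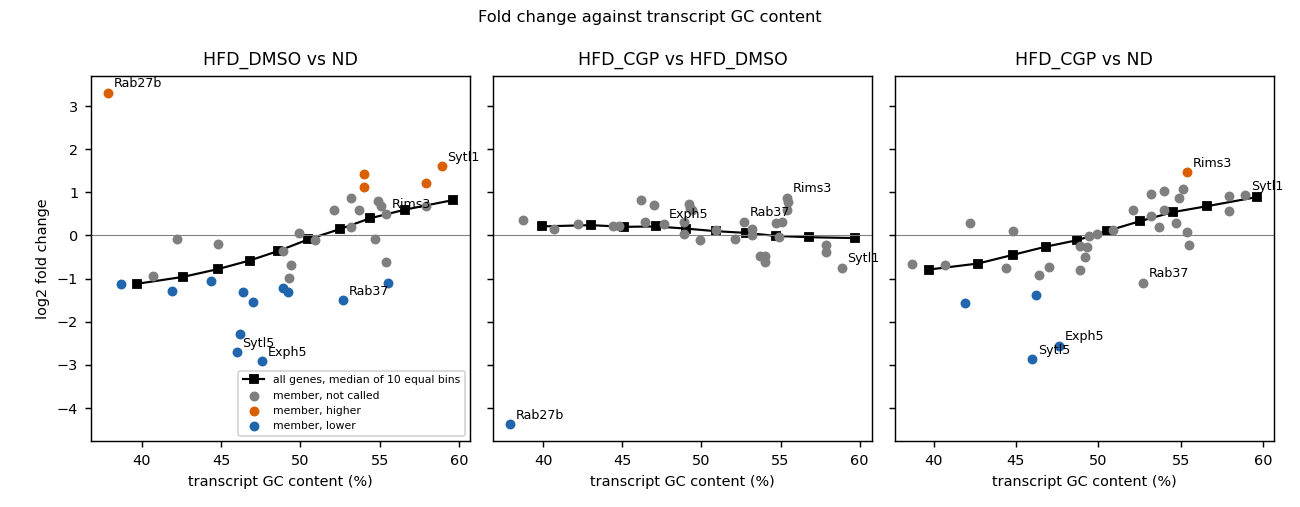
Log2 fold change against transcript GC content in percent for members with at least 100 reads in a library of the pair (circles, coloured by the deposited call) and medians of all genes in 10 equal bins of GC content (black squares). The black line climbs from -1.12 to 0.82 in HFD_DMSO vs ND and is nearly flat in HFD_CGP vs HFD_DMSO. Exph5 and Sytl5 lie far below it in both pairs with ND. Rab27b lies far from it in HFD_DMSO vs ND and in HFD_CGP vs HFD_DMSO, and has too few reads to be drawn in HFD_CGP vs ND.

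Other genes of membrane fusion and granule transport were taken from 5 further lists. The background in HFD_DMSO vs ND was 12.6% of all genes higher and 13.2% lower, or 13.7% and 19.9% at 100 reads or more. After the correction for GC content it was 11.7% and 9.55% of all genes. The counts of the lists were not tested against these shares. In HFD_DMSO vs ND, 1 of 23 other SNARE genes rose and 7 fell, with a median of -0.69, and 2 were lower and 0 higher after the correction for GC content. Vamp7, a SNARE of late endosomes and lysosomes, went from 1137 reads in ND to 192 in HFD_DMSO (-1.95) and 457 in HFD_CGP (-1.38), and passed with the correction in both pairs. Snap47, a relative of Snap25, also passed with it (-1.34, corrected -1.67). Stx12 (-1.46) and Gosr1 (-1.33), SNAREs of endosomes and of the Golgi, fell but did not pass with the correction.

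Of 21 other SM, priming and active zone genes 2 rose and 7 fell (median -0.62), beside 12.6% and 13.2% of all genes. After the correction 5 were lower, beside 9.55% of all genes. Stxbp5l, the second tomosyn gene, had 121, 2 and 13 reads in ND, HFD_DMSO and HFD_CGP, and Ppfia2, a liprin of the active zone, went from 114 reads in ND to 13 in HFD_DMSO (-2.51). Both passed with the correction in HFD_DMSO vs ND. Stxbp3, or Munc18c, the SM partner of syntaxin 4, fell by 1.95, and the active zone scaffold gene Pclo by 1.46, and neither passed with the correction. Of 17 other synaptotagmin and C2-domain genes 3 rose and 4 fell. Syt16 fell by 2.34 and Syt14 by 1.87, while the membrane repair gene Dysf rose by 2.12 and its relative Myof by 1.69. All 4 passed with the correction.

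Of the 10 exocyst genes, whose products tether vesicles to the plasma membrane, Exoc2 and Exoc6 fell in HFD_DMSO vs ND and 0 rose. The background there was 13.2% of all genes lower and 12.6% higher. Exoc2 had 1000 reads in ND, 114 in HFD_DMSO and 513 in HFD_CGP. It fell by 2.52 in HFD_DMSO vs ND and rose by 1.4 in HFD_CGP vs HFD_DMSO. Both calls held after the correction for GC content, and the second was lost with a correction for GC content and length together (1.22). Exoc6 fell by 1.72, and the corrected value of -0.99 did not pass. Of 21 genes of Rab regulation and granule transport 2 rose and 4 fell in HFD_DMSO vs ND, and 1 was higher and 0 lower after the correction. Both counts before the correction were near the background of all genes, 12.6% higher and 13.2% lower. That background was 13.7% and 19.9% at 100 reads or more. The kinesin heavy chain gene Kif5b fell by 1.65, Rabif by 1.34 and Rab3gap1 by 1.1, while Dennd1a rose by 1.11 and was the one that passed with the correction. In HFD_CGP vs HFD_DMSO 2 genes of all 5 lists were called, Exoc2 as higher and Myof as lower (-1.44). The background in that pair was 1.4% of all genes higher and 4.95% lower. Myof did not pass with library totals (-0.79).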

How the data were processed

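RNA-seq libraries of mouse islets, 1 per group, were read from 3 full tables, 1 for each pair of groups. Members and gene lists were chosen with earlier results of these data known. The deposited values are a signal per gene, read counts divided by a factor per library; the file headers name the groups. Each deposited log2 value compares the pair's groups, and raw and adjusted p-values were deposited beside it. DESeq2 1.10.1 is named in the submitters' processing notes. Sources used here do not give the aligner, counter, build or strand setting.

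Whole reads were recovered from the step of low values (99.41% to 99.97% of a column within 0.1 of a whole number). edgeR 4.0.16 (exact test, TMM factors, fixed dispersion 0.04, at least 2 reads over the pair; found by recomputation) matched all deposited calls, with log2 folds within 0.000411. A dispersion of 0.04 is an assumed coefficient of variation of 0.2. Calls are the authors', fold changes the recomputed ones. These p-values compare 2 libraries. GC content is that of the longest GENCODE M21 transcript (99.8% of IDs matched); the correction took a smooth curve over genes with at least 200 reads over the pair as an offset in edgeR's likelihood ratio test at the same dispersion. Positions of 38 of 40 members equal those of GENCODE M21 on GRCm38; exons of 8 members overlap a gene on the other strand and those of 1 a gene on the same strand. Intervals are exact and conditional on the reads of the pair. Simulated pairs were drawn at the same dispersion of 0.04, with 21598 to 22219 genes tested. In each pair 100 genes per fold were changed, all with a mean of at least 100 reads. Of these changes the test recovered 79% to 83% at 4-fold and 100% at 8-fold. This recovery holds only under the assumed spread and does not cover genes with fewer reads.

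Members are given in full if called in any pair, or if at least 2-fold changed with at least 100 reads in a library, along with Snap25, Stx1a, Vamp2, Syt7, Rab3a, Rab27a and Unc13a; other members are given more briefly. Up to 4 called genes with at least 100 reads, by fold change, are named per further list, mainly for HFD_DMSO vs ND. Motifs and promoters shown were chosen after values and matches were seen. Marker lists covered beta, alpha, delta and PP, acinar, duct, stellate, endothelial, macrophage, lymphocyte and neuron or Schwann cells. Summed levels in ND, HFD_DMSO and HFD_CGP were 175000, 588000 and 199000 CPM for beta, 9390, 9020 and 6660 for delta and PP, 250, 637 and 763 for endothelial, 164, 343 and 232 for macrophage and 29.1, 37.6 and 17.4 for lymphocyte markers.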

Additional observations from a re-analysis of the deposited data

How the results depend on the processing

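The members called were counted again with library totals, DESeq2 1.42.0 size factors, scaling without insulin and mitochondrial genes, a coefficient of variation of 0.4, a minimum of 10 reads over the pair, and offsets for GC content or for GC content and length. Main counts were 5 higher and 13 lower in HFD_DMSO vs ND, 0 and 1 in HFD_CGP vs HFD_DMSO, and 1 and 4 in HFD_CGP vs ND. In HFD_DMSO vs ND the count higher was 2 with library totals and 1 with a coefficient of variation of 0.4, with the GC offset and with the GC and length offset; the count lower was 0 with a coefficient of variation of 0.4. In HFD_CGP vs HFD_DMSO the count higher was 8 with library totals. In HFD_CGP vs ND the count higher was 0 with a coefficient of variation of 0.4 and with either offset, and the count lower was 0 with a coefficient of variation of 0.4. DESeq2 size factors, scaling without insulin and the minimum of 10 reads kept all 6 counts within 1.5 times. No member called in the deposited tables changed sign under any of these, or with a prior count of 10. The median of the members in HFD_CGP vs ND changed sign with the GC offset (-0.06 in place of 0.05). The calls rest on the assumed spread, which 1 library per group cannot estimate. Leaving out a replicate was not possible, and the pairs with HFD_DMSO give no value without that library. No paired analysis was possible because each group has 1 library. A count of 0 allows up to 3 reads, or 0.175, 0.184 and 0.17 CPM in ND, HFD_DMSO and HFD_CGP by library total.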
